A study of Mus musculus with 2 samples.

Results

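The Th2 cytokine genes Il4, Il13 and Il5, with Rad50 among them, and the neighbouring cytokine genes Il3 and Csf2 were examined for STAT3 and STAT5 binding in mouse T helper 17 (Th17) cells. The members are the STAT sites whose centres lie in a pair of windows of chromosome 11 fixed by position on the mm9 build and not by any read count: chr11:53370000-53560000, which holds Il4, Il13, Rad50 and Il5, and chr11:54030000-54130000, which holds Il3 and Csf2. They number 35 of 86106 sites in the genome, 21 in the Il4-Il5 window and 14 in the Il3-Csf2 window, and none was filtered out. Of the 6 genes, the rule places Il4 (about 53.426 to 53.432 Mb) and Il5 (about 53.534 Mb) on mm9. RefSeq orders the protein-coding genes as Kif3a, Il4, Il13, Rad50, Il5 and Irf1, and farther along as P4ha2, Csf2, Il3 and Acsl6. Its table is on GRCm38.p6, and no coordinate was carried between builds, so sites are tied to a gene only at Il4 and Il5.

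Both libraries came from wild-type C57BL/6J mice. Naive CD4 T cells (CD44-, CD62L+) sorted from spleen and lymph nodes were grown for 3 days on plate-bound antibody to CD3, with antibody to CD28, IL-6 (20 ng/ml) and TGF-beta (2 ng/ml). Antibodies against IL-4 and IL-2 are listed for this culture as well, but the amount of the second is labelled in IU/ml, as is common for the cytokine. It is therefore open if the culture had IL-2 neutralized or supplied. The STAT3 library was made after 30 minutes of IL-6 (40 ng/ml) with 1 STAT3 antibody, and the STAT5 library after 30 minutes of IL-2 (200 IU/ml) with STAT5A and STAT5B antibodies pooled. Antibody and cytokine changed together and cannot be told apart, no input library was analysed here, and the number of mice behind each library is not stated in the labels. Read positions hold no expression of marker genes, so the Th17 label could not be checked against them.

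IL-4, IL-13 and IL-5 are the signature cytokines of T helper 2 (Th2) cells, which act against parasitic worms and in allergy. Their genes form a cluster whose activity in Th2 cells depends on STAT6, GATA3 and a locus control region inside Rad50, a gene that itself encodes a DNA repair protein. IL-2 acts through STAT5, which is known to be needed for Th2 cells to make IL-4 and to bind the Il4 gene in those cells. IL-3 and GM-CSF, the product of Csf2, drive the growth of myeloid cells, and GM-CSF is also made by Th17 cells that cause tissue inflammation. Th17 cells are not known as a main source of IL-4, IL-5 or IL-13.

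STAT dimers bind inverted TTC and GAA repeats, which are spaced by 3 bases for most STATs and often by 4 for STAT6. The RefSeq promoter sequences (GRCm38.p6, 250 bases before to 50 after each start) were searched on both strands for TTCNNNGAA and TTCNNNNGAA, which read the same on either strand. No match overlapped another. Sequences were found for 5 of the 6 genes and Rad50 has none. Of 6 promoter sequences, Il4 having 2 starts, 3 held a match, against 14.6% of 32851 promoters of the same length (8.30% for the spacing of 3 bases and 6.95% for the spacing of 4). The sequences of Il13, Il5 and Csf2 held no such letters in this window. The 3 with a match are shown because the Il4 gene carries STAT5 sites in these data and Il3 is the other gene with a match. They are written 5′ to 3′ on the minus strand of chromosome 11, with the match in capitals.
Il4, start at the end of the gene: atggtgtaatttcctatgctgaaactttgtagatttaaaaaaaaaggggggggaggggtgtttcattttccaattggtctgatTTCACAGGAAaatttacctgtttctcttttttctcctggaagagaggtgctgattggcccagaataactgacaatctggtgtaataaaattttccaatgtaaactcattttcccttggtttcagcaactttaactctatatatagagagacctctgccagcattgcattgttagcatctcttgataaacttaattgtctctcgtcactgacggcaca
Il4, further start inside the gene: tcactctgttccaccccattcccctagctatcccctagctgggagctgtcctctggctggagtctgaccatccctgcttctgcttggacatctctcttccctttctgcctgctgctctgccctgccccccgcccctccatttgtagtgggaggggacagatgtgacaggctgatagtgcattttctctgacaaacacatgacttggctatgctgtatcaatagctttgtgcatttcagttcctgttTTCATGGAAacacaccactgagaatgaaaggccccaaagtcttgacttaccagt
Il3: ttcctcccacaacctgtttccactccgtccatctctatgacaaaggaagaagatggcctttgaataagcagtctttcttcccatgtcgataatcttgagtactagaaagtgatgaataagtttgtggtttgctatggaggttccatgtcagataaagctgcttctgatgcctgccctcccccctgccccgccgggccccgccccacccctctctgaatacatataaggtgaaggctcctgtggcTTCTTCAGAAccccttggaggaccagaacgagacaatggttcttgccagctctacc
The match TTCACAGGAA begins 167 bases before the first Il4 start, TTCATGGAA begins 4 bases before the further start, and TTCTTCAGAA begins 6 bases before that of Il3. A match is a description of letters, and which of these bases lie under a site was not determined.

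The libraries held 20784388 STAT3 and 17963766 STAT5 reads on nuclear chromosomes, all 25 nt long, with no position and strand used more than once. Reads were moved 50 bp towards their fragment centre and counted in 200 bp windows taken every 50 bp, on the RPM scale (nuclear reads of a library scaled to 1e+06), so a window can hold at most 400 reads. There was 1 library per antibody, and no difference has a replicate check. Every interval below for a level, an uncorrected ratio or a share of reads is an exact 95% interval for counting error only. Where a ratio is corrected or rescaled, its exact interval is multiplied by a fixed factor whose own error is not covered. Reads from PCR are not independent molecules, which these intervals do not cover.

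Reads of both antibodies were raised over the clusters, and more so for STAT5. The Il4-Il5 window held 2820 STAT3 reads (136 RPM, 131 to 141) and 3812 STAT5 reads (212 RPM, 206 to 219). The Il3-Csf2 window held 1496 STAT3 reads (72.0 RPM, 68.4 to 75.7) and 2221 STAT5 reads (124 RPM, 119 to 129). The STAT5 level was 1.56 times (1.49 to 1.64) the STAT3 level over the first window and 1.72 times (1.61 to 1.84) over the second. Among 12674 genome tiles as long as the first window the median ratio was 0.785 (quartiles 0.710 and 0.974), and 97.4% had a lower one. For the second window the median of 23815 tiles was 0.776, and 97.7% had a lower ratio. These tiles were not matched for the number of sites, whose median was 3 and 1 per tile, against 21 and 14 in the windows. The excess lay mainly in the enriched regions, which were called from the same reads. Outside them the ratio was 0.932 (0.869 to 0.999) in the Il4-Il5 window and 0.993 (0.910 to 1.08) in the Il3-Csf2 window, against 2.66 (2.48 to 2.87) and 3.93 (3.50 to 4.43) inside them. Over all 10 kb bins of the genome without a region the ratio was 0.723. With that ratio set to 1, the 2 windows had ratios of 2.16 and 2.38, and lay above 1 outside their regions too.

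The windows were denser in sites than most of the genome. The Il4-Il5 window had 21 sites, more than 92.5% of tiles of its length, whose median was 3. The Il3-Csf2 window had 14, more than 95.9% of tiles, whose median was 1. STAT3 reads formed 13 regions in the first window and 8 in the second, and STAT5 reads 17 and 12. Of 200 bp windows with 5 or more reads, which alone could be called, 88 of 862 (10.2%) were enriched for STAT3, against 8.20% of the genome. For STAT5 it was 129 of 690 (18.7%), against 15.1%. Both shares were somewhat above that of the genome, to a similar degree. Of the 35 sites, 14 (40.0%) were regions of both antibodies, 14 (40.0%) of STAT5 only and 7 (20.0%) of STAT3 only. Over all sites the shares were 47.7%, 34.1% and 18.2%.

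**Figure D1:**
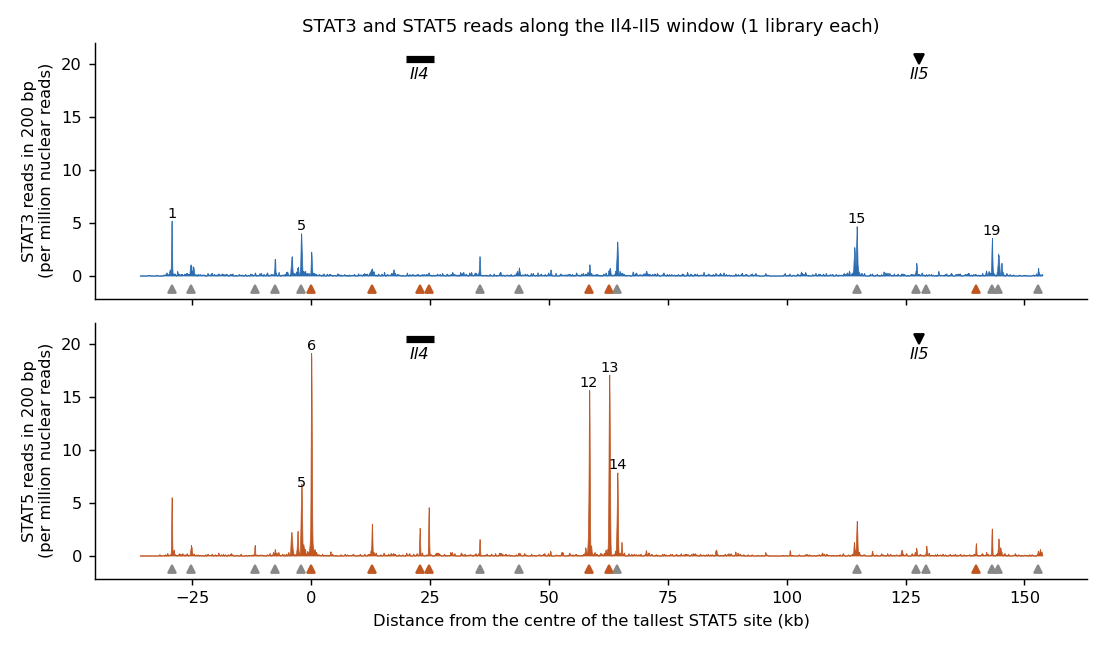
RPM in 200 bp windows along the Il4-Il5 window for the STAT3 library (top) and the STAT5 library (bottom), by distance from the centre of the tallest STAT5 site. Triangles mark the 21 sites, orange where STAT5 was called higher, and numbers give the order of tall sites along the window. STAT5 levels at sites 6, 12 and 13 reach 15.6 to 19.1 RPM, while no STAT3 site exceeds 5.20 RPM.

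Most sites that differed did so in favour of STAT5. A site was called higher with 1 antibody when the interval of the ratio of RPM values, counted in 200 bp around its centre, lay wholly beyond 2-fold. STAT5 was higher at 15 of the 35 sites (42.9%, interval 26.3 to 60.6%), against 27.7% of all sites in the genome. By window these were 7 of 21 (33.3%, interval 14.6 to 57.0%) and 8 of 14 (57.1%, interval 28.9 to 82.3%). The intervals of these shares take sites as independent, which neighbouring sites in the same pair of libraries are not. They therefore do not test a difference from the genome. STAT3 was higher at 0 of 35 (interval up to 10.0%), against 3.18% of all sites. With a limit of 1.5-fold it was higher at 2, against 6.77% of all sites, and STAT5 at 17, against 33.7%. The ratio at the 15 sites ran from 4.46 to 54.4 with a median of 15.5. These sites held 21 to 344 STAT5 reads (median 68) and 1 to 47 STAT3 reads (median 4). At 8 of them STAT3 reads stayed under 2 times the mean of the same window outside regions, and 4 were STAT3 regions as well. With regions of at least 8-fold only, there were 19 sites, 9 of them higher with STAT5, against 35.2% of all sites from such regions.

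**Figure D2:**
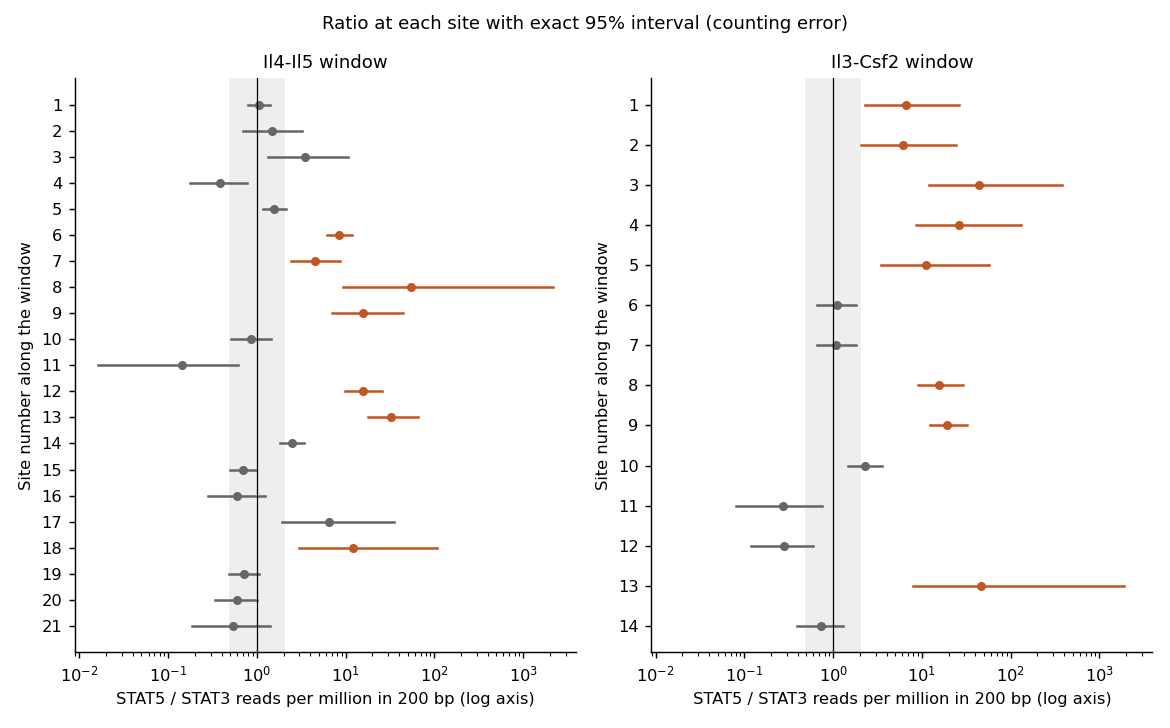
Ratio of STAT5 to STAT3 RPM in 200 bp at each of the 35 sites (points) with its exact 95% interval for counting error (bars), on a log axis, sites numbered along each window. Orange intervals lie wholly beyond 2-fold, outside the grey band, and all 15 of them are on the STAT5 side.

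The Il4 gene carried STAT5 sites and few STAT3 reads. Its span held 2 sites, both STAT5 only. At chr11:53428800-53429099 there were 47 STAT5 reads (2.62 RPM) and 1 STAT3 read (0.0481 RPM). The ratio was 54.4, with an interval of 9.30 to 2193 that is wide because of the lone STAT3 read. At chr11:53430650-53431049, 1.90 kb farther towards the 5′ end of the gene, there were 82 STAT5 reads (4.56 RPM) and 6 STAT3 reads (0.289 RPM), a ratio of 15.8 (6.96 to 44.3). The mean of this window outside regions was 1.59 STAT5 and 1.97 STAT3 reads per 200 bp, so STAT5 stood 29.6 and 51.7 times above it at these sites, and STAT3 at 0.507 and 3.04 times. Neither site is tall for the genome: 64.5% and 79.6% of all sites had fewer STAT5 reads. Over the whole 6 kb of the gene the STAT5 level was 4.01 times (2.91 to 5.64) the STAT3 level, with 170 and 49 reads.

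The stretch on the Kif3a side of Il4, which is its 3′ side, held the tallest STAT5 site of both windows. At chr11:53405950-53406399, 19.8 kb from Il4, there were 344 STAT5 reads (19.1 RPM) and 47 STAT3 reads (2.26 RPM). Both antibodies gave a region there with the same summit, and STAT5 was 8.47 times as high (6.23 to 11.7). Of all sites, 98.7% had fewer STAT5 reads and 71.5% had fewer STAT3 reads. As 86.0% of the possible positions were taken by STAT5, the ratio is compressed, and a correction for positions taken gave 18.2 (13.4 to 25.3).

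Its neighbour 2.10 kb away, chr11:53403850-53404249, leaned less to STAT5 and was not called. It held 112 STAT5 and 83 STAT3 reads, 1.56 times as high (1.16 to 2.10). The ratio was 1.83 (1.45 to 2.31) in 400 bp and 2.16 (1.61 to 2.91) with STAT3 scaled by bins without a region. It was called a region with STAT3 only, although it had more STAT5 reads, because the local mean against which STAT5 was judged takes in the tall neighbour. With the genome-wide mean alone it was a region of both. Closer to Il4, 7.05 kb from it, the STAT5-only site chr11:53418700-53419149 held 54 STAT5 and 14 STAT3 reads (4.46 times, 2.44 to 8.70), a call that was lost with 400 bp counted. Toward the start of the window, chr11:53376550-53376999 had the most STAT3 reads of any of the 35 sites, 108 (5.20 RPM), beside 99 STAT5 reads (5.51 RPM), a ratio of 1.06 (0.799 to 1.41). With STAT3 scaled by bins without a region that ratio was 1.47 (1.11 to 1.95). The other 3 sites of this stretch had 6 to 33 STAT3 and 11 to 18 STAT5 reads.

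Between Il4 and Il5, where Il13 and Rad50 lie, STAT5 formed a tight group of 3 tall sites within 6 kb. The first, chr11:53464350-53464849, lay 32.6 kb beyond Il4 and held 281 STAT5 reads (15.6 RPM) and 21 STAT3 reads (1.01 RPM), a ratio of 15.5 (9.93 to 25.4). The next, chr11:53468550-53469099, lay 4.25 kb on and held 307 STAT5 reads (17.1 RPM) and 11 STAT3 reads (0.529 RPM), a ratio of 32.3 (17.8 to 65.4), or 20.6 in 400 bp. At these sites 70.2% and 76.8% of the positions were taken by STAT5, and the correction for this gave ratios of 26.0 and 60.5. Of all sites, 96.8% and 97.6% had fewer STAT5 reads, but only 41.8% and 24.7% had fewer STAT3 reads.

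The third of the group, chr11:53470250-53470749, was only 1.70 kb farther on and had a different balance. It held 141 STAT5 and 66 STAT3 reads, a ratio of 2.47 (1.83 to 3.36) that was not called. STAT3 reads were thus more numerous there (66 against 11) than at the site next to it, and STAT5 reads fewer (141 against 307). After the correction for positions taken its interval, 2.07 to 3.79, lay beyond 2-fold, as it did with STAT3 scaled by bins without a region (2.54 to 4.65). These intervals leave out the error of the correction and of the scaling.

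Beyond this group no site was found for 49.4 kb, from 53470750 to 53520199. On average the gap held 1.71 STAT3 and 1.17 STAT5 reads per 200 bp, no more than the 1.97 and 1.59 outside regions. Its fullest 200 bp held 9 STAT3 and 23 STAT5 reads, and where in the gap these lay was not determined. The gap ended at chr11:53520200-53521099, 13.2 kb before Il5, a broad site of 900 bp with 1 STAT3 and 2 STAT5 regions. Its 97 STAT3 reads (4.67 RPM) and 58 STAT5 reads (3.23 RPM) gave a ratio of 0.692 (0.491 to 0.968), or 0.957 with STAT3 scaled by bins without a region. Between Il4 and the STAT5 group, chr11:53441350-53441749 was even, with 38 STAT3 and 28 STAT5 reads (0.853, 0.504 to 1.43). The small STAT3-only site chr11:53449750-53449949 held 16 STAT3 reads and 2 of STAT5, which is a ratio of 0.145 (0.0161 to 0.615). In 400 bp it was 0.463 (0.176 to 1.10).

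The sites nearest to the position given for Il5 had few STAT5 reads and no more STAT3 reads than the median site of the genome. Just before that position lay the STAT3-only site chr11:53533250-53533599, with 25 STAT3 and 13 STAT5 reads (0.602, 0.283 to 1.22). Its 25 STAT3 reads equal the median of all sites. Shortly after the position lay the STAT5-only site chr11:53535400-53535649, with 17 STAT5 reads beside 3 of STAT3 (6.56, 1.90 to 34.9). Neither was called higher with 1 antibody, though the second was with 400 bp counted or with STAT3 scaled by bins without a region. From Il5 to the end of the window, on the Irf1 side, the direction depended on the scaling: 293 STAT5 and 398 STAT3 reads gave a ratio of 0.852 (0.730 to 0.993) by RPM and of 1.18 (1.01 to 1.37) with STAT3 scaled by bins without a region. The ratios by RPM were 1.61 (1.48 to 1.75) on the Kif3a side of Il4 and 1.65 (1.54 to 1.77) between Il4 and Il5, or 2.23 and 2.28 after that scaling. The taller sites from Il5 to the end of the window were chr11:53549100-53549449, with 74 STAT3 and 46 STAT5 reads (0.719, 0.487 to 1.05), and chr11:53550500-53550849, with 43 and 22 (0.592, 0.337 to 1.01). The STAT5-only site chr11:53545800-53546099 was the 1 called site of this stretch, with 21 STAT5 and 2 STAT3 reads (12.1, 2.97 to 107), or 6.07 in 400 bp.

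**Figure D3:**
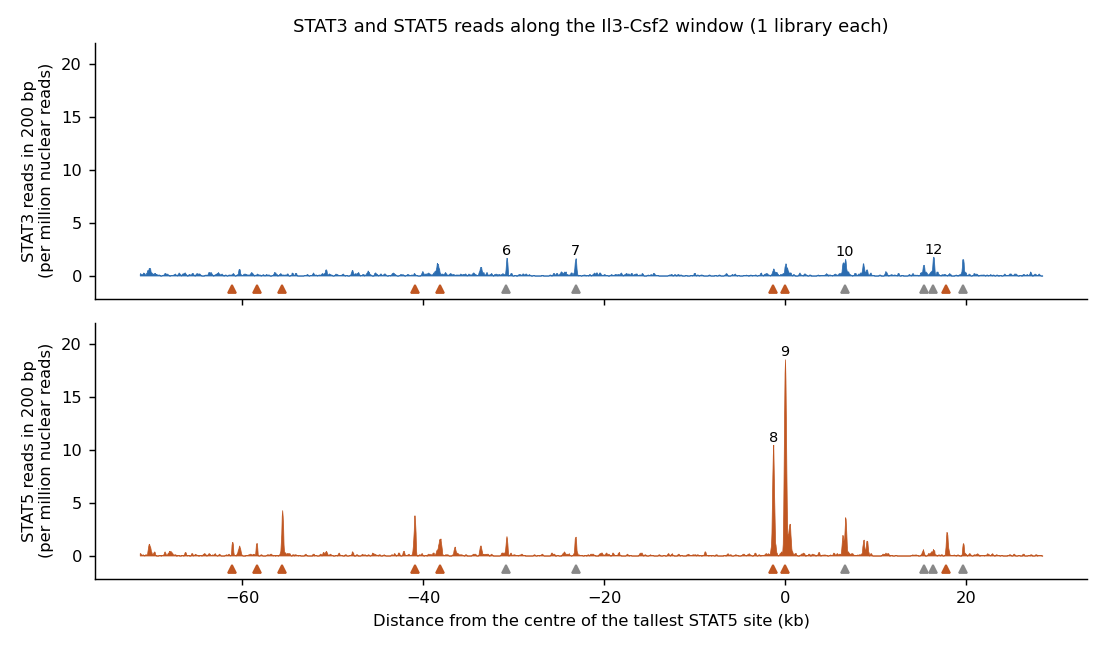
RPM in 200 bp windows along the Il3-Csf2 window for the STAT3 library (top) and the STAT5 library (bottom), by distance from the centre of the tallest STAT5 site, on the same scale as for the Il4-Il5 window. Triangles mark the 14 sites, orange where STAT5 was called higher. The pair of STAT5 sites numbered 8 and 9 reaches 10.5 and 18.5 RPM, and no STAT3 site exceeds 1.78 RPM.

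In the Il3-Csf2 window a pair of STAT5 sites 1.30 kb apart stood out. The taller, chr11:54101200-54101699, held 333 STAT5 reads (18.5 RPM) and 20 STAT3 reads (0.962 RPM), a ratio of 19.3 (12.3 to 32.0). With 83.2% of positions taken by STAT5, the corrected ratio was 40.4 (25.7 to 66.9). Beside it, chr11:54100000-54100299 held 188 STAT5 reads (10.5 RPM) and 14 STAT3 reads (0.674 RPM), a ratio of 15.5 (9.03 to 29.0). More STAT5 reads were seen there than at 98.4% and 92.6% of all sites, and more STAT3 reads than at 40.0% and 28.8%. RefSeq places Csf2 before Il3 in this window and Acsl6 after both, and which of them lies nearest to the pair was not determined.

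Smaller sites with STAT5 and hardly any STAT3 were spread along the rest of this window. At chr11:54045600-54046049 there were 77 STAT5 and 2 STAT3 reads (44.5 times, 11.9 to 374), and at chr11:54060250-54060699 there were 68 and 3 (26.2 times, 8.60 to 130.3). The site chr11:54119150-54119549 held 40 STAT5 reads and 1 STAT3 read (46.3 times, 7.84 to 1873). At these 3 sites the STAT3 count was 0.418 to 1.25 times the mean of the window outside regions, 2.39 reads per 200 bp, whereas STAT5 was 19.5 to 37.5 times its own mean of 2.05. With so few STAT3 reads the ratios depend on the span counted: in 400 bp they were 20.4, 15.8 and 19.3, and all 3 were still called. The weak sites chr11:54040150-54040499 and chr11:54042850-54043149 held 23 and 21 STAT5 reads and 4 STAT3 reads each, with ratios of 6.65 (2.27 to 26.5) and 6.07 (2.05 to 24.3). Neither of these was called when 400 bp were counted, and the second was not called with reads moved 75 bp.

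At 1 place STAT3 and STAT5 sat side by side. The site chr11:54062850-54063499 joined a STAT3 region and a STAT5 region whose summits were 400 bp apart. At the STAT5 summit there were 29 STAT5 and 3 STAT3 reads (11.2 times, 3.47 to 57.4, or 4.73 in 400 bp), and at the STAT3 summit 10 STAT5 and 25 STAT3 reads (0.463, 0.198 to 0.998). Its call as higher with STAT5 therefore holds for 1 end of the site. At the other 13 sites with regions of both antibodies the summits were within 100 bp, and over all 14 the median distance was 25 bp.

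The 14 sites of this window held 1 to 37 STAT3 reads. The fullest, chr11:54117650-54117999, held 37 STAT3 and 9 STAT5 reads (0.281, 0.119 to 0.594), and chr11:54116650-54116899, 1.05 kb before it, 21 and 5 (0.275, 0.0812 to 0.751, or 0.471 in 400 bp). Both were STAT3 only. Neither interval lay wholly beyond 2-fold. The sites chr11:54070450-54070849 and chr11:54078050-54078449 were even, with 35 and 34 STAT3 against 33 and 32 STAT5 reads. So was chr11:54120950-54121299, with 32 and 20. At chr11:54107700-54108299 there were 33 STAT3 reads beside 65 of STAT5, and the ratio of 2.28 (1.48 to 3.58) was called only with STAT3 scaled by bins without a region.

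By RPM, the 20 sites that were not called had ratios of 0.145 to 6.56 with a median of 0.788. The interval lay wholly above 1 at 5 of them, wholly below 1 at 5 and held 1 at 10. With STAT3 scaled by bins without a region, whose ratio by RPM was 0.723, each of these ratios and intervals is higher. The uncalled sites had a median of 33.5 STAT3 reads, against 4 at the sites higher with STAT5, and a median of 21 STAT5 reads, against 68. That the sites called for STAT5 have few STAT3 reads follows in part from the call itself. In the Il4-Il5 window 5 of 21 sites (23.8%) held 50 or more STAT3 reads, near the 26.6% of all sites, and in the Il3-Csf2 window 0 of 14 did. For STAT5 it was 9 of 21 (42.9%) and 5 of 14 (35.7%), against 33.5% of all sites. Of the 7 sites with 100 or more STAT5 reads, 5 were called higher with STAT5, against 61.1% of the 14190 such sites in the genome, and the median ratio of the 7 was 15.5, against 3.75. No test of these differences was made.

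**Figure D4:**
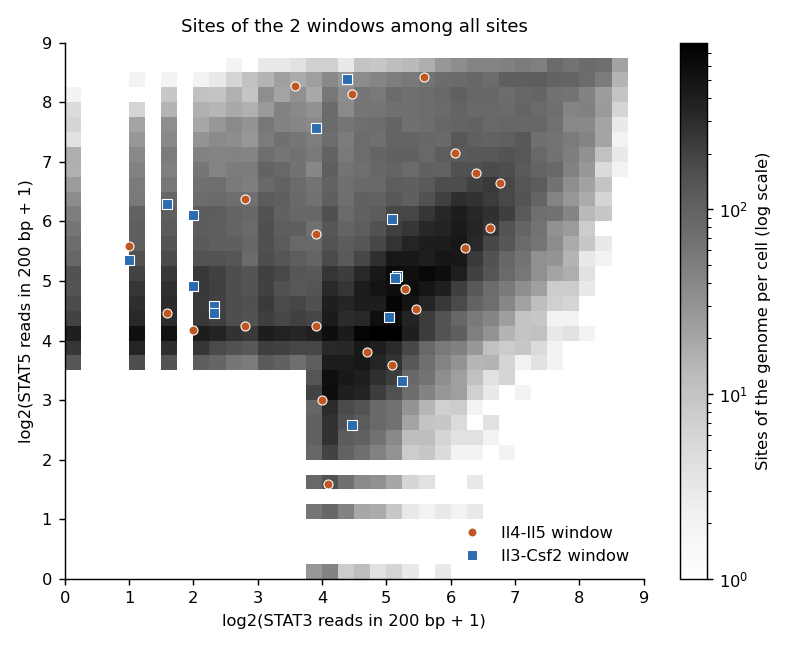
STAT3 reads (x) and STAT5 reads (y) in 200 bp at the 21 sites of the Il4-Il5 window (circles) and the 14 of the Il3-Csf2 window (squares), each as log2(reads + 1), over the density of all 86106 sites (grey, log colour scale). Of the 7 sites with 100 or more STAT5 reads, the 5 that were called hold 11 to 47 STAT3 reads and the other 2 hold 66 and 83.

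A few sites carried much of the STAT5 signal. The 7 sites with 100 or more STAT5 reads, 200 bp each, held 1706 of the 6033 STAT5 reads of the windows (28.3%), and 262 of 4316 STAT3 reads (6.07%). As these sites were picked by their STAT5 reads, the larger share of STAT5 follows in part from that choice. The matching shares over the genome were not determined. All regions together covered 4.34% of the Il4-Il5 window and held 62.2% of its STAT5 reads (60.6 to 63.7%) and 36.5% of its STAT3 reads (34.7 to 38.3%). In the Il3-Csf2 window they covered 5.75% and held 56.5% (54.4 to 58.5%) and 24.7% (22.5 to 26.9%).

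Where reads were drawn by strand, plus-strand 5′ ends of STAT5 lay to the left and minus-strand ends to the right, as for fragments around a bound point. At the 22 sites with 10 or more STAT5 reads on each strand in 400 bp the strands were 84 to 142 bp apart (median 110 bp). At the 20 such STAT3 sites they were 52 to 158 bp apart (median 90.5 bp). These distances cannot show an arrangement around a bound point. Reads were chosen after the move of 50 bp on each strand, so evenly scattered reads would also lie about 100 bp apart. The tallest STAT5 site had 49.4% of its reads on the plus strand, and the tall sites between Il4 and Il5 49.8%, 49.8% and 51.1%. The 6 STAT3 reads at the site inside Il4 were too few to show such an arrangement.

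**Figure D5:**
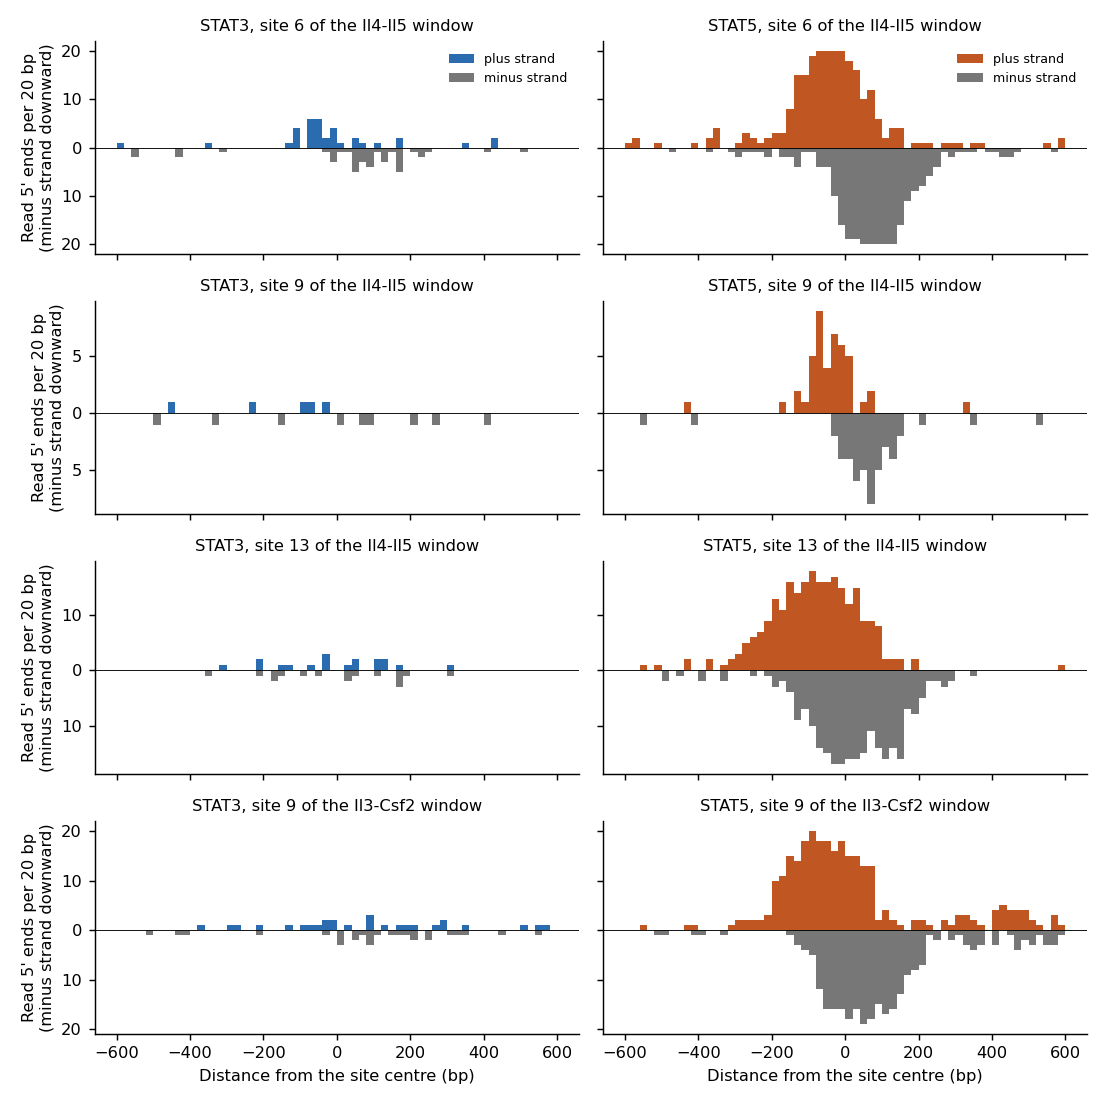
Read 5′ ends per 20 bp on the plus strand (upward) and minus strand (downward) within 600 bp of the centre of 4 sites, for STAT3 (left) and STAT5 (right); each row has its own vertical scale, shared by both antibodies. STAT5 reads of either strand form offset mounds at all 4 sites, STAT3 reads form a small one at site 6 of the Il4-Il5 window, and at site 9 inside Il4 only scattered STAT3 reads are seen.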

How the data were processed

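Chromatin immunoprecipitation sequencing libraries of Th17 cells, 1 for STAT3 and 1 for STAT5, were analysed from lists of aligned reads that the authors deposited. Reads were aligned to mm9, per the submitters' processing notes, and which aligner and filters were used is not given. Removal of duplicates is not described either, but the deposited reads hold no position and strand more than once. The score column the authors deposited is 0 in every line and was not used. Libraries were amplified for 18 cycles and cut at about 250 bp with adapters, per the labels' protocols.

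Reads were counted with Python 3.11.15, numpy 2.4.6, scipy 1.17.1 and pandas 2.3.3; figures used matplotlib 3.10.9. Over all nuclear chromosomes, a 200 bp window was called at 5 or more reads, a count 4 or more times the mean over the genome, over 5 kb and over 10 kb around it, and a Poisson p (1-sided, Benjamini-Hochberg adjusted over windows with a read) of 1e-05 or less. Called windows within 100 bp were joined, regions with over 80% of summit reads on 1 strand were left out, and regions sharing 1 bp were merged into sites centred on the summit of higher RPM. Uncorrected ratios have exact conditional intervals, shares Clopper-Pearson and levels Poisson intervals, all at 95%. For corrected or rescaled ratios the exact interval was multiplied by the factor used. Tiles were kept where at least 80% of their 1 kb bins held a read. The correction for positions taken assumes that reads fall on positions of a strand as a Poisson process. The caller was run on simulated reads with an even background, well separated sites and no limit on reads per position. That run does not cover sites near the limit of positions or beside tall neighbours.

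The members, lists and settings were chosen with earlier results of these data known. By the rule fixed for naming, the text gives the 8 sites of each window with most reads of each antibody, those called higher with 1 antibody and those within 10 kb of Il4 or Il5, 30 in all. The site with 16 STAT3 and 2 STAT5 reads was added after its values were seen. Genes of the wider pathway were not analysed here, since no mm9 annotation was used.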

Additional observations from a re-analysis of the deposited data

How the results depend on the processing

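Of 46 recalculated counts and window ratios, 36 stayed within their limit (1.5 times for a count, the exact 95% interval for a ratio), 8 moved and 2 turned direction. A minimum fold of 8 left 7 STAT3 regions in place of 21, 16 STAT5 regions in place of 29, 19 sites in place of 35 and 9 sites higher with STAT5 in place of 15, which follows from the stricter threshold. The genome-wide mean alone gave 32 STAT3 regions. An interval beyond 1.5-fold gave 2 sites higher with STAT3 (6.77% of all sites in the genome) and 17 with STAT5 (33.7%). Multiplying STAT3 by 0.723, so that the libraries match in 10 kb bins free of regions, raised the window ratios from 1.56 to 2.16 (Il4-Il5) and from 1.72 to 2.38 (Il3-Csf2). Counting reads outside regions only gave 0.932 and 0.993. Sites higher with STAT5 ranged from 9 to 18 over all settings. At the 30 named sites, 114 of 120 recalculated ratios stayed within their interval and 6 moved, none across 1 at a called site. With 400 bp counted, 12 of the 15 calls remained and 1 was added; a shift of 75 bp kept 14. The 400 bp span moved the ratio by over 1.5 times at 9 of the 35 sites. No paired analysis was possible because there is 1 library per antibody. Depth limits the weak sites: those called higher with STAT5 at 21 or 23 reads rest on 2 to 4 STAT3 reads.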
